A study of Danio rerio with 47 samples.

Results

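The 7 genes followed here act in the supply and removal of retinoic acid: stra6, rdh10a, aldh1a2, crabp2a, crabp2b, cyp26a1 and cyp26b1. They were chosen by name, each has 1 row in the value table, and all 7 of the 7 rows named were present among the 31475 rows. Retinoic acid is made from vitamin A inside cells and switches genes on or off through nuclear receptors. Retinol enters the cell, is oxidized first to retinal and then to retinoic acid, is carried by small binding proteins, and is removed by cytochrome P450 enzymes. In mice, retinoic acid has been proposed as a trigger of meiosis in the fetal ovary, and Cyp26b1, an enzyme of its breakdown, delays meiosis in the fetal testis.

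RNA of the trunk region of developing zebrafish was measured on 47 single-colour arrays. Wild-type fish gave 14 arrays at 14 days post fertilization (dpf) and 14 arrays at 22 dpf. The dnd morphants, which were injected at the one-cell stage with a morpholino against dnd, gave 9 arrays at 14 dpf and 10 arrays at 22 dpf. A morpholino is an antisense oligonucleotide, dnd is a gene that primordial germ cells need to survive, and the morphants were picked as embryos for a low count of 1 to 9 such cells. The morphants can therefore still hold germ cells, and the injection reaches every tissue. The labels name no strain and leave it unsaid if each array holds RNA of a single fish or of several, so the p-values measure the spread between arrays, which may be in part technical.

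Values are log2 intensities, so a difference of 1 between log2 levels stands for a 2-fold difference in intensity. A level can be set against the same gene in another group of the same age, but not against another gene. Array medians ran from 7.27 to 7.70. Precision depends on how many arrays a group holds and on how much a gene varies among them. The skeletal muscle list, markers of the main tissue of a trunk, averaged 13.72 to 14.43 on every array. The germ cell list (11 measured rows) had a median of 8.27 in wild type and 5.85 in morphants at 14 dpf, and of 9.55 and 6.07 at 22 dpf. The transcript of dnd had group means of 7.29 (wild type) and 6.01 (morphants) at 14 dpf, and of 9.35 and 5.58 at 22 dpf. A morpholino of this type acts on translation, so these levels do not check the knockdown. At 22 dpf morphant arrays 1 and 2, numbered as in their titles, stood apart with germ cell lists of 8.50 and 8.59 against at most 6.83 in the other 8 morphants. At 22 dpf 5 pairs of arrays deviated from their group means almost alike (r from 0.701 to 0.893) and may share material. They are morphant arrays 1 and 2, morphant arrays 3 and 4, and wild-type arrays 5 and 6, 7 and 8, and 9 and 10. A sixth pair, morphant arrays 5 and 13 of 14 dpf, came next (r = 0.639, against at most 0.413 in any other pair). The near-duplicate pairs below are the 5 of 22 dpf unless the sixth is named.

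Of the 7 genes, 1 changed in the morphants: stra6 fell at 22 dpf. At 14 dpf 0 of the 7 genes passed the test, while 2.48% of all rows did. At 22 dpf 1 of 7 passed, against 3.49% of all rows, and 2.89% of all rows were called as lower in morphants. For the difference between the effects at 22 and 14 dpf 0 of 7 passed, against 0.645% of all rows. The test was limma with Benjamini-Hochberg adjustment over all rows, and a gene was called at an adjusted p below 0.05. With so few members these shares do not set the 7 genes apart from the table as a whole. The median difference of all rows was -0.0112 at 14 dpf and 0.0394 at 22 dpf.

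**Figure D1:**
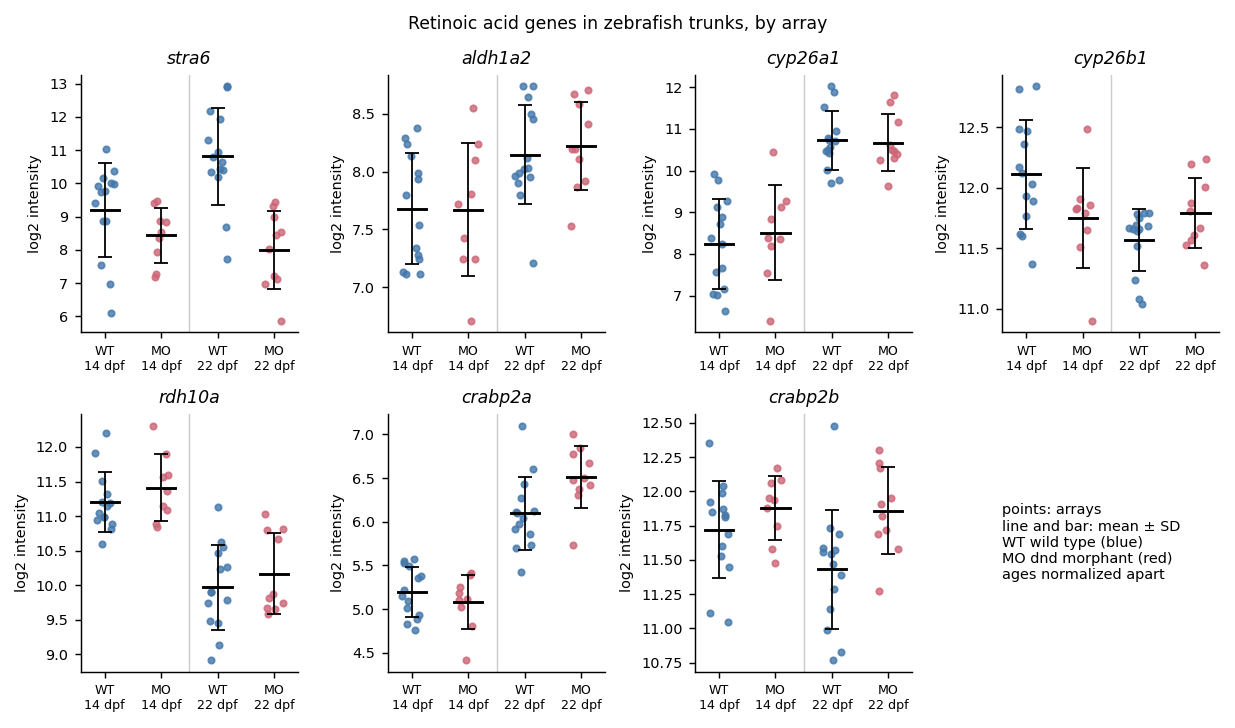
Level of each of the 7 genes (log2 intensity) on each array, with wild type in blue, dnd morphants in red, and the group mean ± SD in black. For stra6 at 22 dpf 12 of 14 wild-type arrays lie above the highest morphant array, while for the other 6 genes the groups of an age overlap widely.

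Stra6 is the cell-surface receptor that takes up retinol from its carrier in blood, the retinol-binding protein. At 22 dpf its log2 level was 5.87 on the lowest morphant array, 8.25 at the median and 9.43 on the highest. Wild-type arrays of that age ran from 7.72 over a median of 10.72 to 12.92. Each of the 10 morphants was below the median of wild type, and 12 of 14 wild-type arrays lay above the highest morphant. The groups overlapped only through wild-type arrays 11 (7.72) and 23 (8.70). The difference in means was -2.81 ± 0.51 (SE, limma adjusted p = 0.000173), a level 7.03-fold lower, with a 95% confidence interval of -3.85 to -1.78 on the log2 scale.

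The 2 highest morphant levels of stra6 at 22 dpf were those of arrays 1 (9.43) and 2 (9.33), which also had the highest germ cell lists of their group. Without both the difference was -3.16 (limma adjusted p = 7.41e-05). With the near-duplicate pairs averaged it was -2.74 (limma adjusted p = 0.00225). Leaving out any 1 array gave differences from -3.05 to -2.58, each with a limma adjusted p of at most 0.00082.

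At 14 dpf stra6 ran from 7.19 over a median of 8.55 to 9.47 in morphants, and from 6.09 over 9.76 to 11.04 in wild type. Each of the 9 morphants was below the median of wild type, but the lowest 2 of 14 wild-type arrays lay below every morphant. The difference of -0.76 ± 0.53 did not pass (limma adjusted p = 0.496), and its 95% confidence interval reached from -1.83 to 0.31. The difference between the effects, 22 minus 14 dpf, was -2.05 ± 0.74 and did not pass either (limma adjusted p = 0.231). The fall is thus called at the later age, and a difference between the ages is not shown.

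The number in an array's title is the only order the labels give across the groups of an age. The arrays numbered up to 12 and from 13 onward were looked at separately as a possible batch. At 22 dpf stra6 was lower in morphants by about as much in both, with -2.59 ± 0.68 up to 12 (4 morphants and 8 wild type, limma adjusted p = 0.054) and -2.97 ± 0.72 from 13 onward (6 of each, limma adjusted p = 0.0357). All near-duplicate pairs of 22 dpf lie up to 12, and the fit of that side counts each of their arrays on its own, so its SE may be too small. With the number groups as a block the difference in stra6 was -2.79 (limma adjusted p = 0.000261). At 14 dpf the sixth pair, morphant arrays 5 and 13, lies across the split, so the number groups may share material. The number groups of that age went different ways. Up to 12 the 7 wild-type arrays lay between 9.75 and 10.38, all above the 5 morphants at 7.19 to 9.42, and the difference was -1.64 ± 0.65 (limma adjusted p = 0.317). From 13 onward the 7 wild-type arrays were spread from 6.09 to 11.04 around the 4 morphants at 7.28 to 9.47, and the difference was 0.13.

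**Figure D2:**
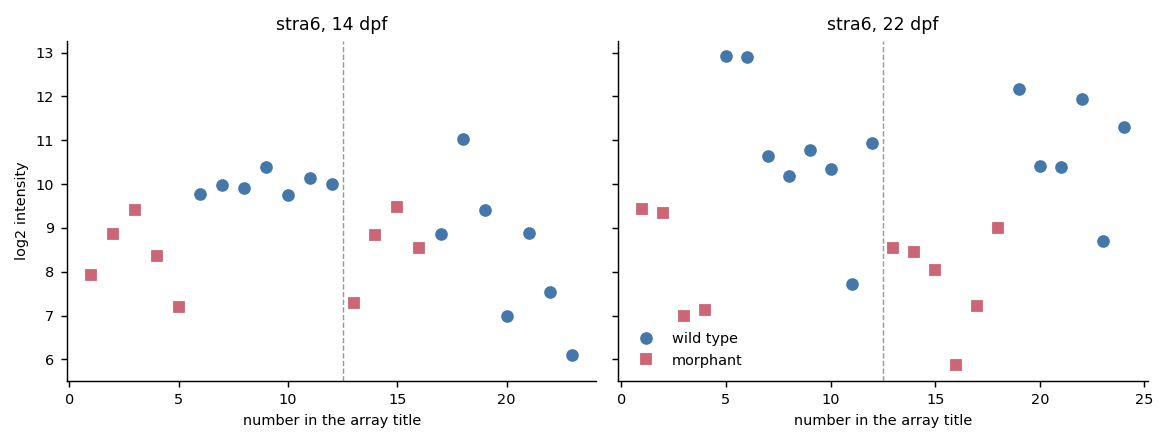
Level of stra6 (log2 intensity) against the number in the array's title, at 14 dpf on the left and 22 dpf on the right, with wild type as blue circles, morphants as red squares and a dashed line between numbers 12 and 13. At 14 dpf the wild-type arrays up to number 12 sit tightly at 9.75 to 10.38 and those after it spread from 6.09 to 11.04, while at 22 dpf wild type is mostly higher on both sides of the line.

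Among the wild-type fish at 22 dpf, stra6 followed the oocyte transcripts closely. The oocyte list is the mean of 12 measured rows, among them the egg-coat genes zp2 and zp3 and the oocyte genes gdf9 and bmp15. It ran from 6.57 to 12.82 in these 14 arrays, with a median of 10.13. Arrays 5 and 6 had the highest oocyte lists (12.82 and 12.70) and the highest stra6 levels (12.92 and 12.90). Arrays 11 and 23 had the lowest oocyte lists and the lowest stra6 levels. Over the 14 arrays Pearson's r was 0.946, with a permutation p of 1e-05, the smallest that 100000 permutations can give (adjusted p = 0.00196 over the 196 correlations of members with marker lists in single groups). Spearman's rho was 0.82 (adjusted permutation p = 0.0497).

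This relation was also seen on each side of the title-number split, with r = 0.96 up to 12 (n = 8, exact permutation p = 0.00136) and r = 0.95 from 13 onward (n = 6, exact permutation p = 0.00972). The arrays up to 12 hold the near-duplicate wild-type pairs 5 and 6, 7 and 8, and 9 and 10. The permutation p for that side treats them as separate arrays, so it may be too small. Without the 2 arrays farthest from the median of the list r was 0.91 (n = 12, adjusted permutation p = 0.0167), and with the near-duplicate pairs averaged it was 0.949 (n = 11, adjusted permutation p = 0.0196). Of all rows of the table, 0.429% had a correlation with the oocyte list as high in these arrays. With the germ cell list stra6 had r = 0.916 (n = 14, adjusted permutation p = 0.00294), and 0.181% of all rows had a correlation as high. The gonad soma list (14 measured rows) was also higher in wild type at 22 dpf, at 6.13 to 6.97 against 5.40 to 6.31 in morphants. Its rows did not move alike. The group means of cyp19a1a (7.30 against 4.94) and foxl2 (8.29 against 6.04) differed most. Only amh (5.40 against 5.68) and sox9a (5.03 against 5.35) were lower in wild type. The correlation of this list with stra6 in wild type was 0.681 (rho = 0.402, n = 14) and did not pass (p = 0.00829 before and p = 0.246 after adjustment of the permutation p). The eye list had medians of 6.31 in wild type and 5.97 in morphants at 22 dpf, and its part in the stra6 values was not tested.

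In the other groups no such relation passed, and at 14 dpf the oocyte list varied little. It lay between 5.89 and 6.78 in wild type at 14 dpf, where stra6 had r = 0.24 with it (n = 14, adjusted permutation p = 0.862). In morphants at 14 dpf it lay between 5.43 and 6.16, with r = 0.183 (n = 9, adjusted exact permutation p = 0.916). In morphants at 22 dpf it was at most 6.40 in 8 arrays, among which r was -0.163 (adjusted exact permutation p = 0.952), and it reached 8.02 and 7.93 in arrays 1 and 2. Over all 10 morphant arrays of 22 dpf r was 0.551 (adjusted permutation p = 0.698). With the germ cell list stra6 had r = 0.716 over these 10 arrays (adjusted permutation p = 0.27). Among the 8 arrays it had r = 0.512 and rho = 0.81 with that list (adjusted exact permutation p = 0.746 and 0.526). The wild-type arrays 11 and 23, whose oocyte lists were nearest to those of the morphants, were also those whose stra6 levels fell in the morphant range. In bulk trunk RNA, fewer cells of a type and less RNA per cell cannot be told apart.

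**Figure D3:**
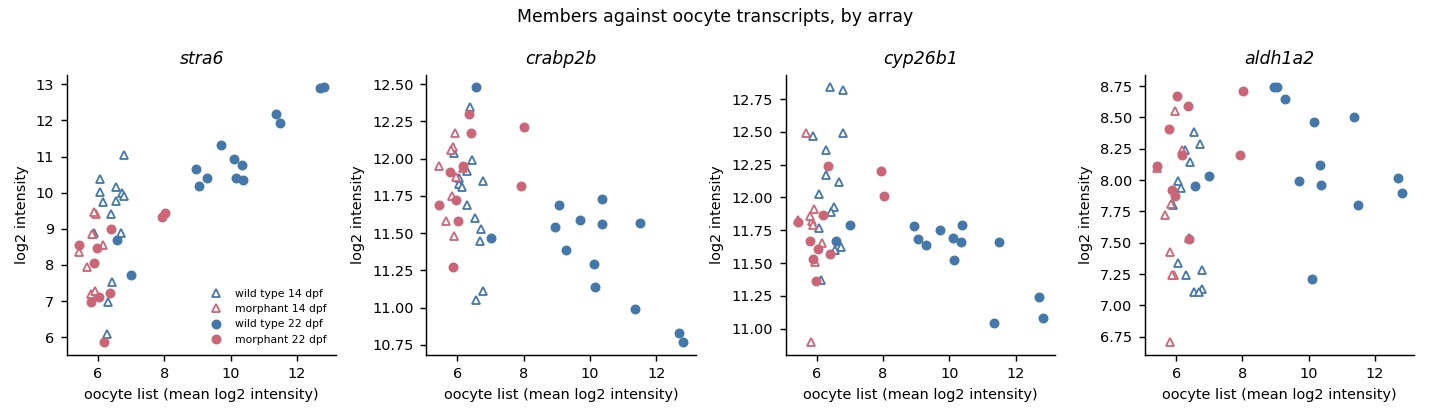
Levels of stra6, crabp2b, cyp26b1 and aldh1a2 (log2 intensity) against the mean of the oocyte list on the same array, with filled circles for 22 dpf, open triangles for 14 dpf, wild type in blue and morphants in red. Stra6 climbs along the wild-type arrays of 22 dpf (r = 0.946), and aldh1a2 shows little slope (r = -0.164). Crabp2b (r = -0.771) and cyp26b1 (r = -0.683) run the other way, and neither of these correlations passed after adjustment.

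The genes whose deviations from their group means were most like those of stra6, over 47 arrays, were xgb (r = 0.74), ifi27.8 (listed as si:dkey-188i13.11, r = 0.74), eef1a1l3 (listed as si:dkey-37o8.1, r = 0.70), pabpc1l (r = 0.70) and asz1 (r = 0.70). Pabpc1l encodes a poly(A)-binding protein of oocytes, and asz1 a germ cell protein of piRNA-based transposon silencing in mice. For xgb, ifi27.8 and eef1a1l3, which rank above both, no germ cell role is stated here. All 5 genes most like stra6 fell in morphants at 22 dpf by limma, from -2.33 ± 0.34 for ifi27.8 to -4.62 ± 0.78 for eef1a1l3. Of all rows, 2.89% were called as lower in morphants at that age. The 5 genes were picked from these same arrays for their likeness to stra6, so their fall is not independent of the fall of stra6.

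Rdh10a and aldh1a2 encode the enzymes of the oxidation steps. Rdh10 turns retinol into retinal, and Aldh1a2 turns retinal into retinoic acid and is the main such enzyme of the embryonic trunk. Rdh10a at 22 dpf ran from 9.58 over a median of 9.85 to 11.03 in morphants and from 8.92 over 9.91 to 11.13 in wild type. At 14 dpf it ran from 10.84 over 11.36 to 12.31 in morphants and from 10.59 over 11.09 to 12.20 in wild type. The groups overlapped over most of their range at both ages. The differences were 0.21 ± 0.23 at 14 dpf (limma adjusted p = 0.688, 95% confidence interval -0.25 to 0.67) and 0.19 ± 0.22 at 22 dpf (limma adjusted p = 0.789, -0.25 to 0.64).

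The means of rdh10a at 22 dpf also differed by title number, in both wild type and morphants, which was not tested. The wild-type mean was 10.37 up to number 12 and 9.44 from 13 onward, and the morphant means were 10.58 and 9.89. The morphant ranges overlapped (9.82 to 11.03 and 9.58 to 10.82). The 4 morphant arrays up to 12 are the near-duplicate pairs 1 and 2, and 3 and 4. Among wild-type arrays of 22 dpf rdh10a was lower where the intestine list was higher (r = -0.813, rho = -0.829, n = 14, adjusted permutation p = 0.0229). This relation was no longer called without the 2 arrays farthest from the median (r = -0.75, adjusted permutation p = 0.254) or with the near-duplicate pairs averaged (r = -0.824, adjusted permutation p = 0.0941). The intestine list itself spanned only 5.71 to 6.48 in these arrays. It too differed by title number, at 5.71 to 5.99 up to 12 and 5.94 to 6.48 from 13 onward. The relation was not tested within the number groups, so it cannot be told apart from a difference between them.

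Aldh1a2 did not pass at either age. At 14 dpf it ran from 6.71 over 7.72 to 8.55 in morphants and from 7.11 over 7.67 to 8.38 in wild type. At 22 dpf it ran from 7.53 over 8.20 to 8.71 in morphants and from 7.21 over 8.02 to 8.74 in wild type. The medians of the groups lay close together at each age, and the ranges overlapped almost fully. The differences were -0.0081 ± 0.20 at 14 dpf (limma adjusted p = 0.990, 95% confidence interval -0.41 to 0.40) and 0.073 ± 0.20 at 22 dpf (limma adjusted p = 0.928, -0.32 to 0.47).

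Aldh1a2 and rdh10a varied together from array to array, with the highest correlation among the 21 pairs of members. After removal of the group means r was 0.499 and rho 0.544 over 47 arrays (permutation within groups, adjusted p = 0.00861). It was 0.463 with the near-duplicate pairs averaged (adjusted permutation p = 0.0493) and 0.605 without the 2 arrays farthest out. By group r was 0.784 in morphants and 0.529 in wild type at 14 dpf, and 0.856 in morphants and 0.131 in wild type at 22 dpf. By title number it was 0.378 up to 12 and 0.771 from 13 onward. The genes most like aldh1a2 were defbl1 (r = 0.70), rab34a (0.69), ifi30b (listed as loc565583, 0.67), apod (0.66) and htra4 (listed as loc100334257, 0.66). Those most like rdh10a were msna (r = 0.74), prkci (0.67), sh3kbp1 (0.65), psmg3 (0.64) and btbd10b (0.64). None of these 10 genes passed the limma test at 22 dpf, where their adjusted p ran from 0.151 for rab34a upward.

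Crabp2a and crabp2b are the zebrafish forms of a protein that, in mammals, carries retinoic acid to its nuclear receptors. Both stood somewhat higher in morphants at 22 dpf without passing. Crabp2a ran from 5.73 over a median of 6.49 to 6.996 in morphants and from 5.42 over 6.07 to 7.10 in wild type. In 9 of 10 morphant arrays it was above the wild-type median, while the ranges overlapped almost fully. The difference was 0.41 ± 0.15 (95% confidence interval 0.11 to 0.71), with p = 0.0094 before and p = 0.15 after limma's adjustment. At 14 dpf crabp2a had low signal, from 4.42 to 5.41 in morphants and from 4.76 to 5.58 in wild type, and differed by -0.12 ± 0.16 (limma adjusted p = 0.755).

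Crabp2b at 22 dpf ran from 11.27 over 11.87 to 12.30 in morphants and from 10.77 over 11.51 to 12.48 in wild type. Here too 9 of 10 morphant arrays were above the wild-type median, 4 wild-type arrays lay below every morphant, and wild-type array 23 was the highest of all. The difference was 0.43 ± 0.15 (95% confidence interval 0.12 to 0.74), with p = 0.0074 before and p = 0.131 after limma's adjustment. It was called without wild-type array 23 (0.51 ± 0.14, limma adjusted p = 0.0251), and in none of the other fits that leave out 1 array. Crabp2a was called without morphant array 18 (limma adjusted p = 0.0489) or wild-type array 24 (limma adjusted p = 0.0401). At 14 dpf crabp2b ran from 11.48 over 11.94 to 12.17 in morphants and from 11.05 over 11.82 to 12.35 in wild type, a difference of 0.16 ± 0.16 (limma adjusted p = 0.666).

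Crabp2b moved against the germ cell transcripts among the wild-type arrays of 22 dpf. Arrays 5, 6 and 19, with oocyte lists of 12.82, 12.70 and 11.36, had the lowest levels of crabp2b (10.77, 10.83 and 10.99), but array 22, with an oocyte list of 11.50, had 11.57, above the wild-type median. Array 23, with the lowest oocyte list, had the highest level (12.48). With the germ cell list r was -0.805 and rho -0.56 (n = 14, adjusted permutation p = 0.0377), and 0.241% of all rows had a correlation as low. Without the 2 arrays farthest from the median r was -0.528 and no longer called (adjusted permutation p = 0.524). With the near-duplicate pairs averaged it was -0.772 and not called either (adjusted permutation p = 0.277). By title number r was -0.79 up to 12 (n = 8, exact permutation p = 0.0249) and -0.82 from 13 onward (n = 6, exact permutation p = 0.0819). The near-duplicate pairs lie up to 12, so the p of that side may be too small. With the oocyte list r was -0.771 (adjusted permutation p = 0.0533), and with arrays centred on their median it was -0.799 and called (adjusted permutation p = 0.0286). Without the 2 arrays farthest out on the oocyte list it was -0.745 and not called (adjusted permutation p = 0.254). Arrays 5, 6 and 19 also had skeletal muscle lists at the low end of their group (13.84, 13.79 and 13.85, against a group median of 14.02). Low muscle lists were not limited to them. Array 21 had 13.83, with an oocyte list of 9.28 and crabp2b at 11.39, and array 22 had 13.89. The part of the muscle list in the result was not tested.

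The genes most like crabp2b were txndc12 (r = 0.70), si:ch211-284d12.2 (0.65), rab6a (0.64), bnc2 (0.64) and si:dkeyp-115f6.1 (0.62). Those most like crabp2a were sfrp2 (r = 0.53), lasp1 (0.53), s100v2 (0.52), trpt1 (0.52) and si:dkey-65b12.6 (0.50), the loosest set of the 7. Crabp2a and crabp2b themselves had r = 0.118 with each other over 47 arrays (adjusted permutation p = 0.65), and did not pass.

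Cyp26a1 and cyp26b1 encode the enzymes that break retinoic acid down, and cyp26a1 is itself induced by retinoic acid in zebrafish embryos. Cyp26a1 at 14 dpf ran from 6.40 over a median of 8.37 to 10.44 in morphants and from 6.64 over 8.30 to 9.92 in wild type. At 22 dpf it ran from 9.62 over 10.47 to 11.81 in morphants and from 9.69 over 10.63 to 12.02 in wild type. The groups overlapped almost fully at both ages, and the spread at 14 dpf was wide (SD 1.14 in morphants and 1.08 in wild type). The differences were 0.26 ± 0.38 at 14 dpf (limma adjusted p = 0.780, 95% confidence interval -0.50 to 1.03) and -0.042 ± 0.37 at 22 dpf (limma adjusted p = 0.982, -0.79 to 0.70). The genes most like it were jun (r = 0.68), hoxa10b (0.66), coq6 (0.66), cox6a2 (0.65) and rab1bb (0.64).

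Cyp26b1 at 14 dpf ran from 10.90 over 11.82 to 12.49 in morphants and from 11.37 over 12.07 to 12.84 in wild type. In 8 of 9 morphant arrays it lay below the wild-type median, and 3 wild-type arrays lay above every morphant. The difference was -0.35 ± 0.16 (95% confidence interval -0.68 to -0.03), with p = 0.033 before and p = 0.247 after limma's adjustment. It came from one side of the title-number split. From 13 onward the 7 wild-type arrays (11.89 to 12.84) lay almost wholly above the 4 morphants (10.90 to 11.91), with a difference of -0.82 ± 0.23 (limma adjusted p = 0.0591), and up to 12 it was 0.071. Without morphant array 14, the lowest, the difference was -0.25 (limma adjusted p = 0.459).

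At 22 dpf cyp26b1 ran from 11.36 over 11.74 to 12.24 in morphants and from 11.04 over 11.67 to 11.79 in wild type. Wild-type arrays 19, 5 and 6 were the only ones below every morphant (11.04, 11.08 and 11.24). These have 3 of the 4 highest oocyte lists of their group, while array 22, with the third-highest (11.50), had cyp26b1 at 11.66, near the wild-type median. The difference of 0.22 ± 0.16 did not pass (limma adjusted p = 0.601), and neither did the difference of effects of 0.57 ± 0.22 (p = 0.0141 before and p = 0.285 after limma's adjustment). With the oocyte list cyp26b1 had r = -0.683 in wild type at 22 dpf, which did not pass after adjustment.

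Cyp26b1 and crabp2b were the other pair of members that varied together, with r = 0.402 and rho = 0.478 over 47 arrays (adjusted permutation p = 0.0424). The correlation was 0.715 in wild type at 22 dpf, 0.545 in morphants at 22 dpf, 0.371 in wild type at 14 dpf and -0.0541 in morphants at 14 dpf. With the near-duplicate pairs averaged it was 0.37 and no longer called (adjusted permutation p = 0.147), and by title number it was 0.152 up to 12 and 0.47 from 13 onward. The remaining 19 pairs did not pass. Among them were stra6 with crabp2b (r = -0.389, adjusted permutation p = 0.092) and cyp26a1 with cyp26b1 (r = 0.141, adjusted permutation p = 0.65). The genes most like cyp26b1 were txnrd2 (r = 0.62), slco2b1 (0.61), gas1b (0.61), loc100006764 (0.59) and trmt10a (0.59).

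**Figure D4:**
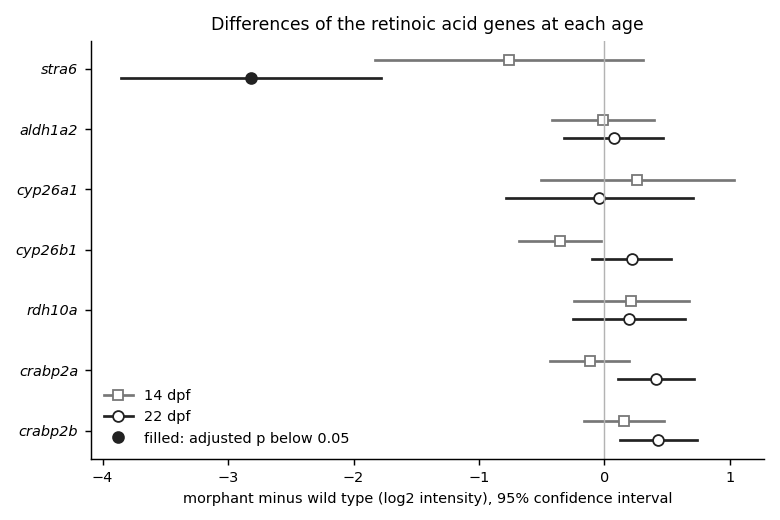
Difference of each gene between morphants and wild type (log2 intensity) with its 95% confidence interval from limma, as grey squares for 14 dpf and black circles for 22 dpf, filled where the adjusted p is below 0.05. The filled point is stra6 at 22 dpf (-2.81), and no other difference is larger than 0.43 apart from stra6 at 14 dpf (-0.76).

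Levels at the 2 ages are set side by side without a test, because arrays of an age share exactly equal low values far more often than arrays of different ages do (0.0395 per pair of arrays at 14 dpf, 0.185 at 22 dpf and 0.00362 across ages), so the ages appear to have been normalized apart. The wild-type mean of cyp26a1 was higher at 22 dpf by 2.47 and that of stra6 by 1.62, while that of rdh10a was lower (-1.22). In all, 2 of the 7 genes stood higher and 1 lower by at least 1, against 9.67% and 6.68% of all rows. For cyp26a1 12 of 14 wild-type arrays of 22 dpf lay above the highest of 14 dpf, and for rdh10a 12 of 14 lay below the lowest.

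The morphants showed age differences of similar size for these 2 enzymes, with 2.17 for cyp26a1 and -1.24 for rdh10a. For stra6 the age difference in morphants (-0.44) was of the other sign than in wild type. Crabp2a was higher at 22 dpf by 0.90 in wild type and 1.43 in morphants. Of its arrays of 22 dpf, 13 of 14 in wild type and 10 of 10 in morphants lay above the highest array of 14 dpf. Crabp2a is a dim row, with group means of 5.08 to 6.51, below the lowest array median of 7.27. For these counts, and for those of cyp26a1 and rdh10a, the share of all rows was not computed. Aldh1a2 was higher by 0.47 and 0.55. Cyp26b1 differed by -0.54 in wild type and 0.04 in morphants, and crabp2b by -0.29 and -0.02.

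Other pathway genes were counted here under 105 names, some of them for the same gene, and 87 genes were measured. At 14 dpf 1 of these 87 rose and 0 fell by limma, and 1.15% of all rows were called as higher in morphants at that age. At 22 dpf 0 of the 87 passed by limma, against 3.49% of all rows, and 12 had an unadjusted p below 0.05, against 13.9% of all rows. These counts do not set the 87 genes apart from the table as a whole. The median difference of the 87 genes was 0.04 at 14 dpf and 0.10 at 22 dpf.

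Of the 15 measured genes of retinol transport and storage counted here, 0 passed at either age. Rbp4, the blood carrier of retinol and the ligand of Stra6, differed by 0.07 ± 0.31 at 14 dpf and 0.01 ± 0.30 at 22 dpf. Stra6l, a relative of stra6, stood near the bottom of the scale in every group (4.93 to 5.18). Rbp7b had means of 12.34 (morphants) and 11.68 (wild type) at 22 dpf (limma adjusted p = 0.141), and rlbp1b had means of 7.63 and 8.75 at 14 dpf (limma adjusted p = 0.126). Lratb, which esterifies retinol for storage, was above the wild-type median in 10 of 10 morphants at 22 dpf (1.12 ± 0.60, limma adjusted p = 0.417).

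Among 26 genes of carotenoid cleavage and of retinol and retinal oxidation and reduction, rdh8a rose at 14 dpf. Rdh8 acts in photoreceptors in mammals, where it reduces retinal. The 5 morphants up to number 12 lay between 10.93 and 11.65 and the 4 later ones between 11.07 and 11.68, all above the wild-type median, while wild type ran from 10.06 to 11.33 and from 8.03 to 10.96. The difference was 0.94 ± 0.26 (limma adjusted p = 0.0419). It was 0.36 up to number 12 and 1.545 from 13 onward, and the call did not hold in 13 of the 47 fits that leave out 1 array or with the near-duplicate pairs averaged (limma adjusted p = 0.0536). Wild-type arrays 20 and 23 were the lowest, at 8.38 and 8.03 against at least 10.06 in the other wild-type arrays. Without array 20 the difference was 0.79, and without array 23 it was 0.76. Rdh10b, the paralog of rdh10a, had means of 8.32 (morphants) and 9.53 (wild type) at 22 dpf, with 10 of 10 morphants below the wild-type median (-1.21 ± 0.37, limma adjusted p = 0.054). The difference in rdh10b was called in 7 of the 47 fits that leave out 1 array. Wild-type arrays 5 and 6, a near-duplicate pair, were highest, at 12.54 and 12.36 against at most 10.27 in the other 12. They also had the highest oocyte lists (12.82 and 12.70). A fit without both was not run, and the relation of rdh10b to the oocyte list was not tested. Bco1 (listed as bcmo1a), which cleaves carotene to retinal, stood at 10.67 and 9.86 at 14 dpf (limma adjusted p = 0.0835).

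**Figure D5:**
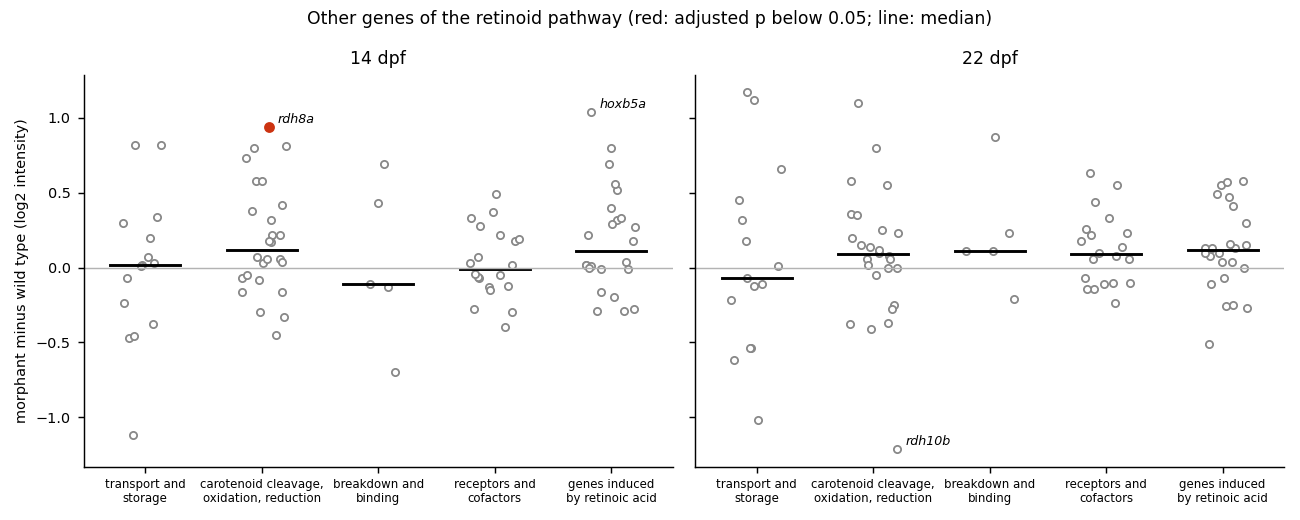
Difference between morphants and wild type (log2 intensity) of the 87 pathway genes beside the 7 members, by list, at 14 dpf on the left and 22 dpf on the right, with a black line at the median of each list and red points where the adjusted p is below 0.05. The medians lie between -0.11 and 0.12, and the red point is rdh8a at 14 dpf (0.94).

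For the genes that bind or break down retinoic acid beside the members, 0 of 5 passed at either age. Crabp1a, another retinoic acid carrier, had means of 10.77 (morphants) and 10.09 (wild type) at 14 dpf, with 9 of 9 morphants above the wild-type median (0.69 ± 0.22, limma adjusted p = 0.0805). Cyp26c1, the further member of the breakdown family, differed by -0.13 ± 0.26 at 14 dpf and -0.21 ± 0.25 at 22 dpf. Of 20 receptors and cofactors 0 passed at either age. The receptor rxraa had means of 6.57 (morphants) and 6.01 (wild type) at 22 dpf (limma adjusted p = 0.0845), and raraa differed by -0.06 ± 0.15 and 0.18 ± 0.15.

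Of 24 measured genes known to be induced by retinoic acid in embryos, 0 passed at either age, and the median differences were 0.11 and 0.12. Hoxb5a, a homeobox gene, was nearest to passing at 14 dpf, with 10.59 in morphants and 9.55 in wild type and 9 of 9 morphants above the wild-type median (1.04 ± 0.31, limma adjusted p = 0.0561). Meis3 stood at 11.21 and 10.52 (limma adjusted p = 0.0759). Tgm2b of the same list went the other way at 14 dpf, with 9 of 9 morphants below the wild-type median (-0.29 ± 0.18, limma adjusted p = 0.442). For such counts of pathway genes against the wild-type median the share of all rows was not computed. At 22 dpf isl1 had the smallest p of this list (0.55 ± 0.20, limma adjusted p = 0.146), with 7 of 10 morphants above the wild-type median. Ret, a receptor tyrosine kinase of enteric nerve precursors, came next, with 10 of 10 morphants above the wild-type median (0.57 ± 0.23, limma adjusted p = 0.20). The list of exocrine pancreas markers also stood higher in morphants at 22 dpf, with a median of 12.44 against 9.46 in wild type, and its part in these values was not tested.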

How the data were processed

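Per the labels' protocols, total RNA of trunks was extracted with a small-sample kit, amplified, labelled with Cy3 and hybridized to NimbleGen arrays. The authors deposited 1 log2 value per row and array, and the submitters' processing notes name RMA with no version. These log2 values were used as deposited, with no filter. Groups came from the labels. Current symbols came from reference gene tables (22614 matched, 8815 none, 46 several).

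The model held 4 group means (limma 3.58.1 in R 4.3.3), with eBayes and Benjamini-Hochberg adjustment over 31475 rows, called below 0.05. Marker list values are means of log2 levels. Correlations used two-sided permutation tests, exact below 10 arrays and with 100000 permutations otherwise (Python 3.11.15). The scripts were tested on simulated data. No array had a read depth, so precision depends on the number of arrays and the spread of a gene among them.

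The members and gene lists were chosen with earlier results of these data known. All members are named. Most other pathway genes that are named were called or were among the 2 of their list with the smallest p at an age. The rest were chosen after their values were seen, for their role (rbp4, stra6l, cyp26c1, raraa) or their direction (tgm2b). Not every gene among the 2 with the smallest p is named, and that choice was also made with the values seen. The 5 genes most like a member come from named rows with a mean of at least 7. Alternatives covered centring, near-duplicate pairs, filters on dim rows, number groups, a replicate block, array weights and each array left out. No genome was used. Some listed pathway genes are not reported here, and the counts of pathway genes leave them out.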

Additional observations from a re-analysis of the deposited data

Results flagged for a closer look

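In the 2 morphant groups, 28 sets of values were looked at for a single stray array, over the 7 members and 7 marker lists, and 3 held one, where chance gives about 1 in 20. None was a member of the retinoic acid genes. Morphant array 3 of 14 dpf had a germ cell list of 7.96, against 6.52 on the nearest array of its group. Morphant array 4 of 14 dpf had a liver list of 7.39, against 6.63. Morphant array 14 of 22 dpf had a liver list of 11.44, against 6.91. The wild-type groups, of 14 arrays each, were not tested in this way, and there array 10 of 14 dpf had a liver list of 12.37, the highest of its group.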

How the results depend on the processing

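The count of called members stayed at 0 (14 dpf), 1 (22 dpf) and 0 (difference of effects) under each alternative run, except 0 at 22 dpf with title numbers 1 to 12 only. Leaving out 1 array gave 0 to 0, 1 to 2 and 0 to 0. Stra6 at 22 dpf kept its direction throughout. Correlations with marker lists passing fell from 4 to 2 with the near-duplicate pairs averaged and to 2 without the 2 arrays farthest out, and came to 5 with arrays centred, and pairs of members from 2 to 1 with near-duplicates averaged. Ordinals in the labels did not pair the samples (same-numbered arrays did not deviate together), and with this replicate block stra6 at 22 dpf was -2.905 (limma adjusted p = 0.000115) and 1 member was called. Rows called over the table at 14 and 22 dpf (main 780 and 1097) were 195 at 14 dpf in a fit of that age, 617 and 669 with near-duplicates averaged, 1013 and 535 with rows of mean at least 7, 45 and 455 for numbers 1 to 12, and 524 and 1753 with array weights. Filters on dim rows left out crabp2a.

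Signs turned only in differences that did not pass, and the cause was not tested. At 14 dpf these were aldh1a2 with arrays centred (0.0411), with the sixth pair averaged (0.0335) and for numbers 1 to 12 (0.161), cyp26a1 for numbers 1 to 12 (-0.258) and with the replicate block (-0.0715), cyp26b1 for numbers 1 to 12 (0.0712), and crabp2b (-0.0638) and stra6 (0.134) for 13 onward. At 22 dpf they were aldh1a2 for 13 onward (-0.188), cyp26a1 with near-duplicates averaged (0.041) and for 13 onward (0.085), and rdh10a with the replicate block (-0.0327). For the difference of effects they were aldh1a2 with the sixth pair (-0.00183), cyp26a1 for numbers 1 to 12 (0.0993), and rdh10a with numbers as a block (0.128), for 13 onward (0.348) and with array weights (0.0393). Leaving out 1 array turned aldh1a2 at 14 dpf (-0.117 to 0.112), cyp26a1 at 22 dpf (-0.169 to 0.0748), and the difference of effects of aldh1a2 (-0.0388 to 0.191) and rdh10a (-0.116 to 0.0913). Centring, the added pair and the fit without morphant arrays 1 and 2 changed no member's call, and the last 2 were chosen after seeing the data.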
